A study of Mus musculus with 2 samples.

Results

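The cytosolic ribosomal protein genes were followed in single cells of mouse liver after exposure to PCB126 or to its vehicle. Members were the genes whose symbol starts with Rpl or Rps and a digit, together with Rplp0, Rplp1, Rplp2 and Rpsa. Of 107 symbols starting with Rpl or Rps, 11 that carry -ps, the mark of a pseudogene, and 10 Rps6k kinases were left out. This gave 86 members among the 34244 genes of the deposited lists: 52 large-subunit (Rpl) symbols, 33 small-subunit (Rps) symbols and Rps19bp1. Rps19bp1 encodes a binding partner of Rps19 and not a ribosomal protein, so the label does not hold for it. The 8 paralog members are relatives of a core gene (Rpl3l, Rpl7l1, Rpl10l, Rpl22l1, Rpl36al, Rpl39l, Rps27l and Rps27rt), and the core set without them had 77 genes. The ribosomal proteins encoded by genes such as Fau and Rack1 fall outside the symbols used and are described separately.

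Both mice were C57/BL6, with 1 liver library each, so no difference between them has a replicate check. The Control mouse received peanut oil by gavage (its treatment label reads "Untreated"), and the PCB126 mouse received PCB126, a dioxin-like polychlorinated biphenyl, at 20 µg/kg/day. The protocol names a single gavage although the dose is per day, and both mice had a 5-week exposure and a 12-hour fast. The age label, postnatal day 21, is not tied to a time point. Hepatocytes and red cells had been depleted, so the libraries hold mainly endothelial, immune and bile duct cells.

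Each ribosome holds a small subunit, which reads the messenger RNA, and a large subunit, which joins the amino acids. Cells make nearly every ribosomal protein in equal number, and the genes encoding them are among the most strongly transcribed of any cell. Many of these transcripts begin with a run of C and T bases at the 5′ end, the 5′ terminal oligopyrimidine tract, through which growth signalling by mTOR and Larp1 controls their translation. Cells that grow, divide or respond to antigen usually carry more of these transcripts than short-lived, fully differentiated cells such as neutrophils. Counts of messenger RNA do not show how many ribosomes a cell holds.

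The start regions of 6 members on which the results turn are shown first, because the start of the transcript carries that tract. Rps28 and Rpl38 were among the members with a lower share in the PCB126 library, Rpl15 and Rpl24 were among those with a higher share, and Rps9 and Rps18 had a higher share in neutrophil-like and in cholangiocyte-like cells, respectively, than in LSEC-like cells. Sequences are RefSeq's on GRCm38.p6, from 60 bases before the annotated start to 20 bases after it on the strand of the gene. Capitals mark a C followed by at least 7 C or T bases that starts within 20 bases of the annotated start. The windows are chr17:33824543-33824622 on the minus strand for Rps28, chr11:114668520-114668599 on the plus strand for Rpl38, and chr14:18270967-18271046 on the minus strand for Rpl15. Those of the other members are chr16:55966215-55966294 on the plus strand for Rpl24, chr7:3703981-3704060 on the plus strand for Rps9, and chr17:33955646-33955725 on the minus strand for Rps18.
Rps28: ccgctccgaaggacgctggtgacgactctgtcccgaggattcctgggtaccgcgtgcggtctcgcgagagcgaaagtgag
Rpl38: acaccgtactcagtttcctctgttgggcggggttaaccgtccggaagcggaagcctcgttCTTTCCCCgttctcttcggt
Rpl15: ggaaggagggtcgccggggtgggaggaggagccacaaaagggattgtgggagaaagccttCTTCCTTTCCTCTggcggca
Rpl24: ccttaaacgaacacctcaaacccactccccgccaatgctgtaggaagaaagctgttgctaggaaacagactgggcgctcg
Rps9: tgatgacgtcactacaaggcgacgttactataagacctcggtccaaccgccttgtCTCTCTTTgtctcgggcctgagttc
Rps18: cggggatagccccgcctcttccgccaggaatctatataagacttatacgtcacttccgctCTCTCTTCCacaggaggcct

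In Rpl38, Rpl15 and Rps18 the marked run opened at the annotated start, and in Rps9 it opened 5 bases before it. C or T bases also stood directly before each of these runs, so the capitals do not mark the whole stretch. Rps28 and Rpl24 held no such run near the start. The lower and the higher members shown thus each included a gene with the run and a gene without it. Among the 66 members with a RefSeq window, 32 (48.5%) held the run on the sense strand, against 16.6% of all 27025 genes with a window. A run of the same make-up on the antisense strand occurred in 9.09% of the members and 19.0% of all genes. It was searched in a slightly different stretch around the start, so the strands are not compared exactly like for like. Over the whole window of 300 bases, the letters CTTTC occurred on the sense strand in 65.2% of the members and 37.9% of all genes. The letters CCGGAA, on either strand, occurred in 54.5% of the members and 16.7% of all genes, and AAGATGGC, on either strand, in 9.09% and 3.19%. A match describes the letters and is not evidence of a bound factor.

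The Control library gave 1858 cells with 13754218 UMIs (unique molecular identifiers, 1 per captured molecule), and the PCB126 library gave 1138 cells with 9871419 UMIs. The median cell held 5258.5 UMIs in Control and 6567 in PCB126. Mitochondrial UMIs took a median of 7.58% of a Control cell and 12.2% of a PCB126 cell. The libraries shared 3 cell barcodes, none of them among the cells used. Cells were assigned to classes by marker genes, and 9.85% of Control cells and 7.47% of PCB126 cells stayed without a class. Liver sinusoidal endothelial (LSEC)-like cells numbered 176 in Control and 495 in PCB126, neutrophil-like cells 764 and 99, and cholangiocyte-like (bile duct) cells 66 and 82. A further endothelial class with at least as many vascular as LSEC marker UMIs numbered 70 and 98. Its median cell expressed 8 of 15 vascular markers and 10 of 14 LSEC markers in Control, and 6 and 8 in PCB126, so it is called vascular-weighted endothelial and not a pure vessel type. B-like cells (20 and 53) and dendritic-like cells (31 and 103) were too few in Control for more than a description. All 15 dendritic markers were present in the PCB126 class, whereas Cd209a, Clec10a and Mgl2 were at 0 in its 31 Control cells. A dendritic cluster with these 3 genes among its 10 leading genes held 24 Control and 76 PCB126 cells. The dendritic-like classes of the libraries thus differed in make-up. How far this enters the dendritic-like ratios below was not tested.

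Ribosomal protein transcripts made up 11.999% of the UMIs of Control cells, against 13.7% of those of PCB126 cells, a ratio of 1.14 (exact 95% interval 1.138 to 1.143). All intervals here cover counting error only and not the difference between mice. The median cell differed more, with 4.99% in Control and 8.07% in PCB126. Single cells ranged from 0.259% to 38.8% in Control and from 0.736% to 42.7% in PCB126, so the ranges overlapped over almost their whole width. Much of the gap between the libraries moved with the mix of classes. Over the 13 classes present in both, Control class shares weighted by the Control mix gave 11.3%, and PCB126 class shares weighted by the same mix also gave 11.3%. Weighted by the PCB126 mix, both sets of class shares gave 13.3%.

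The classes differed far more from each other than the libraries did. Neutrophil-like cells had the lowest share of the classes present in both libraries with at least 10 cells, at 3.16% of summed UMIs in Control and 3.10% in PCB126. LSEC-like cells followed with 5.31% and 6.32%. The vascular-weighted endothelial class reached 11.1% and 11.0%, and the cholangiocyte-like class 12.04% and 10.7%. Monocyte-like cells (413 and 16) had 14.6% and 15.2%. T-like cells (10 and 40) had 21.9% and 26.5%, dendritic-like cells 26.1% and 24.8%. The highest sums were those of B-like cells, at 30.1% and 25.9%. In their antibody-secreting descendants, the plasma-like cells, the share was 17.1% in 38 Control cells and 16.9% in 4 PCB126 cells. Erythroid-like cells, found only in Control (46 cells) among the gated cells, had 4.81%, and globin took 50.7% of their UMIs. The order of the 4 main classes was the same in both libraries except that the cholangiocyte-like and vascular-weighted classes changed places.

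**Figure D1:**
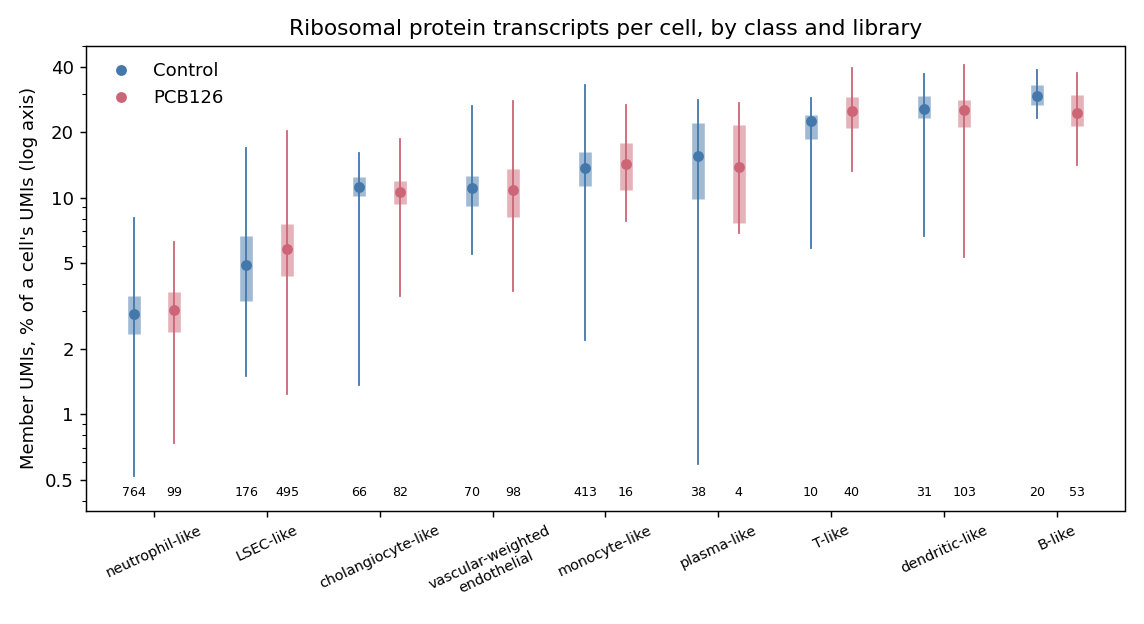
Share of a cell's UMIs that came from the 86 members, on a log axis, for 9 classes in the Control (blue) and PCB126 (red) libraries. Points are medians over cells, thick bars quartiles, thin lines the full range, and the numbers along the bottom are cells. Medians ran from 2.90% in Control neutrophil-like cells to 29.5% in Control B-like cells, and the 2 libraries overlapped in every class.

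In LSEC-like cells, the scavenging lining of the liver's capillaries, the summed share was 1.19 times as high in PCB126 as in Control (interval 1.18 to 1.20). The median cell had 4.88% in Control (quartiles 3.32% and 6.65%) and 5.77% in PCB126 (quartiles 4.32% and 7.55%). The large-subunit genes had a ratio of 1.21 and the small-subunit genes 1.17. Several other quantities moved with this difference. Mitochondrial UMIs were 11.0% of the Control class and 14.0% of the PCB126 class, and Gm42418, a gene that overlaps a ribosomal RNA repeat, was 20.4% and 14.9%. With mitochondrial genes, Gm42418, AY036118 and Lars2 removed from the total, the shares were 7.84% and 8.95%, a ratio of 1.14. At matched mitochondrial share the PCB126 value was the higher one in each range with 20 or more cells: 6.29% against 7.70% at 5 to 10% mitochondrial UMIs, 4.65% against 6.53% at 10 to 15%, and 4.12% against 5.59% at 15 to 20%. Across cells the share was lower at higher mitochondrial share in both libraries, with Spearman's rho of -0.39 over 176 Control cells and -0.30 over 495 PCB126 cells. These 2 percentages share a denominator, and the values describe cells of 1 mouse each.

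The LSEC-like cells of the 2 libraries fell largely into different transcriptome clusters, and a cluster held mostly by 1 library may be that library rather than a cell type. Control cells lay mainly in clusters 17 (55 cells) and 8 (48 cells), and PCB126 cells in clusters 2 (295 cells) and 4 (158 cells). Each cluster with at least 10 LSEC-like cells of both libraries had the higher share in PCB126. The shares were 5.00% (15 Control cells) and 5.96% (295 PCB126 cells) in cluster 2, and 5.52% (21) and 6.32% (158) in cluster 4. They were 4.68% (48) and 9.47% (13) in cluster 8, and 7.31% (17) and 9.93% (23) in cluster 15. By its markers cluster 8 was named vascular endothelial, as was cluster 5, which held 17 Control LSEC-like cells. Clusters 15 and 17 were named LSEC, yet neither held an LSEC marker among its 10 leading genes. The part that cluster make-up plays in the summed ratio was not tested.

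The member share of endothelial cells followed their position between sinusoidal and vascular markers. In the lowest of 7 bins of vascular over LSEC marker UMIs it was 4.65% in Control and 6.09% in PCB126, and in the highest bin it was 11.8% and 12.2%. Control values were higher at every step between bins. PCB126 values were not, since the second bin (6.06%) lay just below the lowest, and the second highest (8.999%) lay below the third highest (9.14%). PCB126 was above Control in 6 of the 7 bins, and in the bin from 1 to 2 it was below, at 8.999% against 10.4%.

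**Figure D2:**
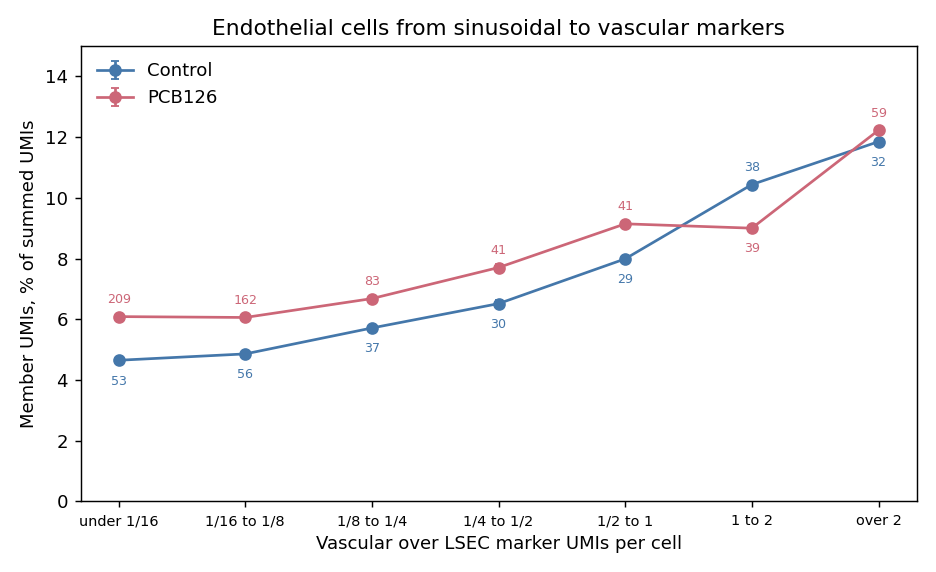
Member share of summed UMIs in endothelial cells ordered by the ratio of vascular to LSEC marker UMIs, with Control in blue and PCB126 in red. Points are sums over the number of cells printed beside them, with exact 95% intervals that are mostly smaller than the points, and values run from 4.65% to 11.8% in Control and from 6.06% to 12.2% in PCB126.

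Cholangiocyte-like cells differed in the other direction. Their summed share was 12.04% in Control and 10.7% in PCB126, a ratio of 0.888 (interval 0.882 to 0.894), and 0.896 without the mitochondrial and rRNA-related genes. The median cell had 11.2% in Control and 10.6% in PCB126, with quartiles that overlapped (10.1% to 12.5%, and 9.29% to 11.9%). The 2 classes also differed in depth, with medians of 10675 UMIs per cell in Control and 15074.5 in PCB126. Thinned to 1000 UMIs per cell, the ratio was 0.959. All 66 Control and all 82 PCB126 cells lay in 1 cluster.

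Neutrophil-like and vascular-weighted endothelial cells showed no difference whose direction held across settings. The neutrophil-like ratio was 0.980 (interval 0.962 to 0.998), and 1.02 without the mitochondrial and rRNA-related genes. Its clusters 1 and 13 were led by no neutrophil marker and by 1 marker of another class, so values are also given by cluster: 2.98% in Control and 2.63% in PCB126 in cluster 1, 3.13% and 3.15% in cluster 3, and 3.62% and 3.17% in cluster 13. S100a8 and S100a9, the leading neutrophil transcripts, took 15.9% of this class in Control and 8.66% in PCB126. The vascular-weighted ratio was 0.989 (interval 0.980 to 0.998), and 1.03 without the mitochondrial and rRNA-related genes. B-like cells had a ratio of 0.861 (0.928 without those genes) and dendritic-like cells 0.950. In B-like cells mitochondrial UMIs were 7.79% in Control and 13.4% in PCB126, and globin was 0.0553% and 0.791%.

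Single members were compared by CPM, the UMIs of a gene scaled to the class total, among genes with at least 100 UMIs over both libraries in the class. A gene was called at a fold of 1.5 or more, with no p-value. In LSEC-like cells 82 of the 86 members had enough UMIs, and 13 were called higher in PCB126, beside 12.5% of all 4886 genes in that class. None was called lower, beside 6.49% of all genes. A share of 15.9% called higher lies near the background. The median log2 ratio of the members was 0.29, against 0.05 for all genes, and 65 members lay above 0 and 17 below. Most genes have longer transcripts than the members, and in this class other short genes were also higher in PCB126. Members under 500 nt had a median log2 ratio of 0.11, against 0.38 for 20 other genes of that length. Those from 500 to under 700 nt had 0.29, against 0.59 for 81 other genes. Members of 700 nt and over had 0.35, against 0.24 for 976 other genes from 700 to under 2000 nt and -0.0037 for 3710 of 2000 nt and over. The medians of the members thus lay below those of other genes in the shorter bins, and the median of all genes is not a comparison at equal length. The higher genes included Rps27l, Rpl10, Rpl36al, Rpl30, Rpl19, Rps27rt, Rpl28, Rpl26, Rpl15, Rps20 and Rpl18. This count was 7 with the mitochondrial and rRNA-related genes removed from the total, 8 with edgeR's TMM scaling and 2 when clusters replaced the marker gate.

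In cholangiocyte-like cells the members split. Of 83 that passed, 1 was called higher (4.65% of all genes) and 11 were called lower, or 13.3%, against 3.44% of all genes. The lower ones were Rps28, Rps29, Rpl38, Rpl39, Rps27, Rpl37a, Rps21, Rpl37, Rpl41, Rpl36 and Rpl6, and the higher one was Rpl15. The median member had a log2 ratio of -0.03, against 0.09 for all genes. The 57 passing members with transcripts of 700 nt and over, taken with 3 that did not pass, had a summed share ratio of 0.993, and the 11 under 500 nt had 0.598. In the vascular-weighted class no member of 81 was called higher (5.78% of all genes) and 6 were called lower (9.62% of all genes). In neutrophil-like cells 6 of 79 were called higher and 6 lower, beside 17% and 12.4% of all genes. No dendritic-like or B-like count rested on more than 31 Control cells. In dendritic-like cells 1 of 82 was higher (14.1% of all genes) and 7 lower (7.88%), and in B-like cells 0 of 79 were higher (16.7%) and 9 lower (16.9%).

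**Figure D3:**
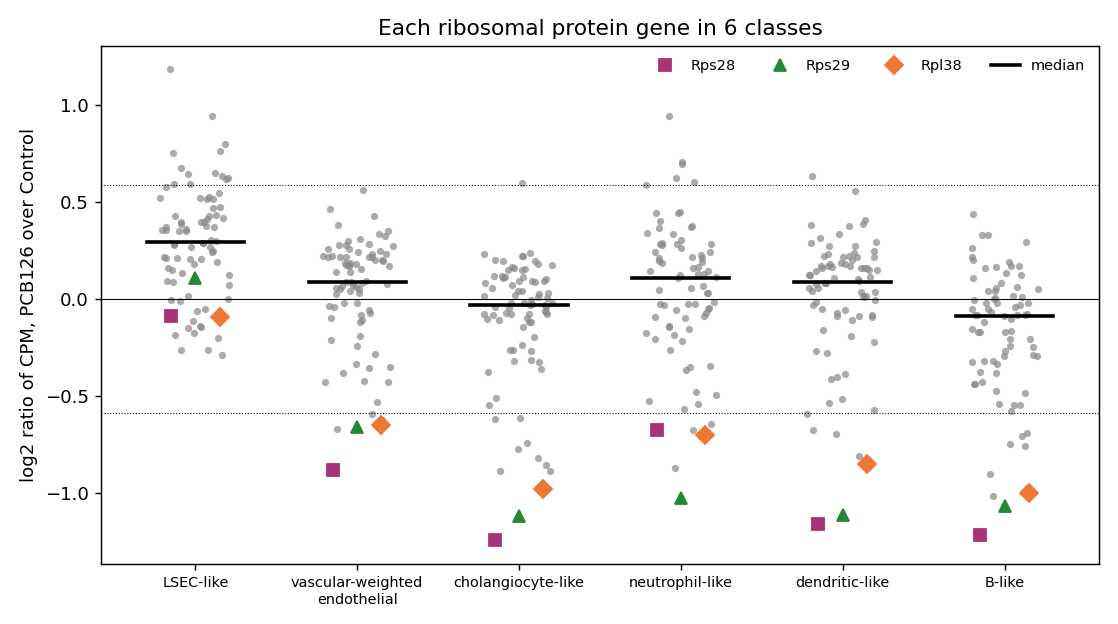
log2 ratio of CPM, PCB126 over Control, for every member with at least 100 UMIs in each of 6 classes. Grey points are members, black bars medians (0.29 in LSEC-like and -0.03 in cholangiocyte-like cells), dotted lines mark a fold of 1.5, and Rps28, Rps29 and Rpl38, picked out after their values were seen, lie at or near the bottom outside the LSEC-like class.

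To set aside the level of the whole group, each member was also expressed as a share of the summed members of its class. On this scale 3 genes were at least 1.5-fold lower in PCB126 in 5 of the 6 classes: Rps28, Rps29 and Rpl38. Rps28 and Rps29 are small proteins of the small subunit, the latter with a zinc-binding motif, and Rpl38 is a small protein of the large subunit. Rps28 took 1.94% of the member UMIs in Control cholangiocyte-like cells and 0.923% in PCB126. It took 2.13% and 1.17% in the vascular-weighted class, 1.08% and 0.688% in neutrophil-like cells, 1.93% and 1.53% in LSEC-like cells, 1.98% and 0.995% in B-like cells, and 2.53% and 1.19% in dendritic-like cells. The PCB126 library was the lower in each of the 6 classes, and the difference was smallest in LSEC-like cells. The log2 ratios of this share ran from -1.08 in dendritic-like to -0.34 in LSEC-like cells.

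Rps29 had the most UMIs of all members, with 80185 in Control and 34724 in PCB126. It took 3.68% of member UMIs in Control cholangiocyte-like cells and 1.91% in PCB126, and 5.37% and 2.70% in neutrophil-like cells. In LSEC-like cells it took 3.66% and 3.31%, a log2 ratio of -0.15. On the CPM scale, where the whole group was higher in that class, Rps29 stood at 1944 in Control and 2094 in PCB126, a ratio of 1.08 (interval 1.02 to 1.13). Rps29 was thus lower within the group in all 6 classes, while its level in LSEC-like cells was not. Rpl38 took 2.56% and 1.47% of member UMIs in cholangiocyte-like cells, 1.84% and 1.19% in the vascular-weighted class, and 2.00% and 1.57% in LSEC-like cells.

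Rpl41, the smallest ribosomal protein, and Rpl39, which lines the exit tunnel, were at least 1.5-fold lower within the group in 3 of the 6 classes. Rpl41 took 3.33% and 2.17% in neutrophil-like cells and 1.56% and 1.03% in the vascular-weighted class. In cholangiocyte-like cells Rpl41 took 1.75% and 1.18%, just short of that fold, and Rpl39 took 1.79% and 1.09%. Rps21, of the small subunit, had 2.57% and 1.64% there. At the other end, Rpl15, a core protein of the large subunit, was at least 1.5-fold higher within the group in 3 classes. It took 0.274% of Control and 0.468% of PCB126 member UMIs in cholangiocyte-like cells, 0.242% and 0.396% in dendritic-like cells, and 0.144% and 0.280% in neutrophil-like cells. The last of these rested on 144 and 37 UMIs, with a CPM ratio of 1.90 (interval 1.29 to 2.75). Rpl24, which bridges the subunits, took 0.563% and 0.869% in neutrophil-like cells and 0.530% and 0.668% in cholangiocyte-like cells.

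Of the 77 members with at least 100 UMIs in all 6 classes, 13 had a lower share of the group in PCB126 in every class and 26 had a higher share in every class. The 13 lower ones were Rps28, Rps29, Rpl38, Rpl41, Rpl39, Rps21, Rpl6, Rps27, Rpl37a, Rpl36a, Rpl36, Rps26 and Rpl31. The 26 higher ones included Rpl15, Rpl24, Rpl9, Rpl10, Rps10 and Rpl12. Shares of the group sum to a fixed total, so a lower share of some members raises that of others. By CPM, 9 of the 77 had a ratio below 1 in every class and 16 a ratio above 1. The same counts over all genes are not given here. All 6 classes of a library come from 1 mouse and 1 preparation, so they are not independent of each other. The 9 members that did not reach 100 UMIs in all 6 classes were 7 of the paralogs, Rpl13a and Rps19bp1.

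Short transcripts were frequent among the members that were lower in every class. By the annotated principal transcript in GENCODE M21, member transcripts ran from 345 to 5179 nt with a median of 882 nt. Of the 13 members lower in every class, 7 had transcripts under 500 nt, and of the 26 higher in every class none did. The length limits were set after the values were seen. The 11 members under 500 nt (among them Rps27, Rps27rt, Rpl36, Rps29, Rps21, Rps28, Rpl38, Rpl36a, Rps27l and Rplp1) together took 18.4% of member UMIs in Control cholangiocyte-like cells and 12.4% in PCB126. They took 19.5% and 14.4% in the vascular-weighted class, 18.2% and 13.1% in neutrophil-like cells, 17.9% and 12.5% in B-like cells, and 18.3% and 11.6% in dendritic-like cells. In LSEC-like cells the shares were closer, at 17.7% and 15.5%, with 8 of the 11 below 0 on the log2 scale and 3 above. All Control values lay between 17.7% and 19.5%, and all PCB126 values lay below them.

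**Figure D4:**
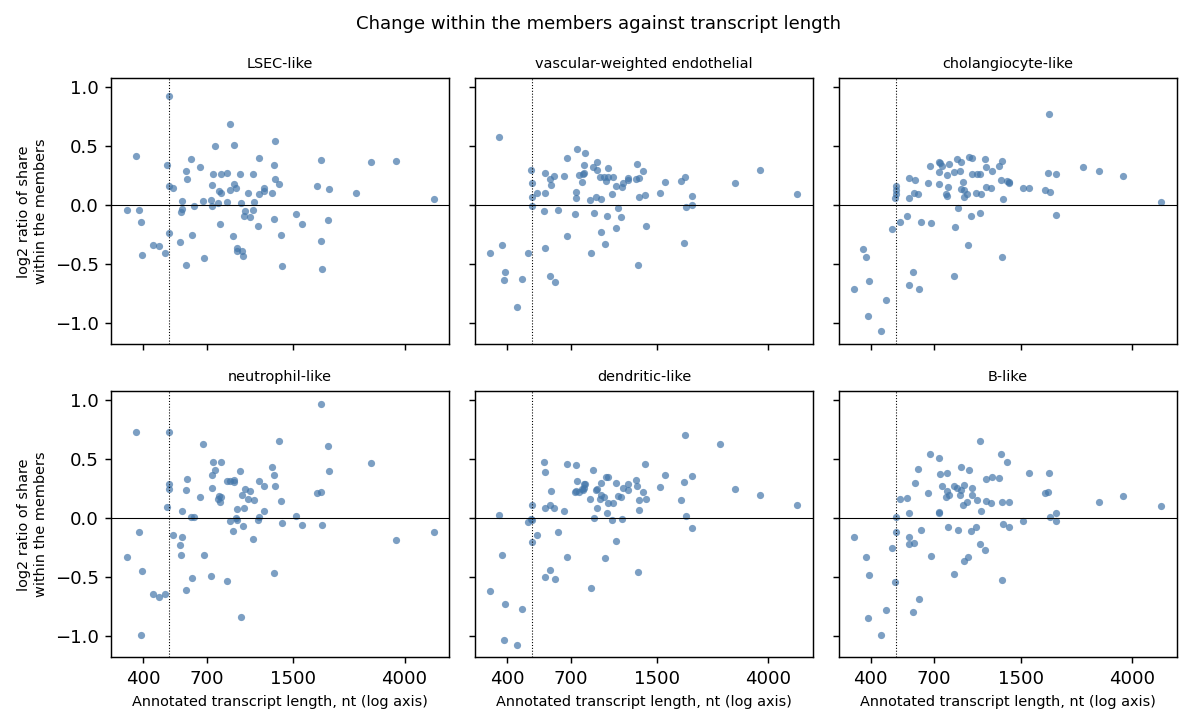
log2 ratio, PCB126 over Control, of each member's share of the group against its annotated transcript length (log axis), in 6 classes. The dotted vertical line marks 500 nt. In cholangiocyte-like cells 8 of the 11 members left of it lie below 0, against 8 of 57 members of 700 nt and over.

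Among members of 700 nt and over, the share of the group was higher in PCB126 in every class. Examples are 63.1% and 70.5% in cholangiocyte-like cells and 63.6% and 65.2% in LSEC-like cells. As a share of all UMIs, the ratio of these members ran from 0.955 in B-like cells to 1.22 in LSEC-like cells. Spearman's rho between length and the ratio of group share was 0.45 over 83 members in cholangiocyte-like cells, 0.43 over 82 in dendritic-like cells and 0.08 over 82 in LSEC-like cells. Short members did not all follow: Rps27l and Rps27rt had higher shares of the group in PCB126 in neutrophil-like cells, at log2 0.73 each. These values rested on few UMIs, 116 in Control and 25 in PCB126 for Rps27l, and 111 and 24 for Rps27rt. Genes outside the members with transcripts under 500 nt had a median log2 ratio of -0.38 in cholangiocyte-like cells (26 genes), -0.42 in the vascular-weighted class (12 genes), -0.21 in neutrophil-like cells (32 genes) and -0.35 in dendritic-like cells (25 genes). In LSEC-like cells the same kind of gene had a median of 0.38 (20 genes), and in B-like cells 0.66 (7 genes). The lower level of short transcripts was therefore shared by other short genes in 4 of the 6 classes. Barcodes left out of the cells showed the difference too. The 11 short members took 18.1% of member UMIs in Control barcodes under 250 genes and 14.0% in PCB126, and 17.4% and 14.5% in barcodes over 20% mitochondrial UMIs. Whether library preparation, read length or RNA quality has a part in this difference was not tested.

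The products of the stalk genes recruit elongation factors to the large subunit. Of these genes, Rplp0 was among the 3 lowest members within the group in LSEC-like cells. Rplp1 fell less than several other members, such as Rps21 and Rps28. Rplp0 took 0.920% of member UMIs in Control and 0.644% in PCB126, with a CPM of 488 and 407 (ratio 0.834, interval 0.749 to 0.928). Rplp2 took 2.01% and 1.49%, and Rplp1 took 2.74% and 2.33%. Rpsa, a small-subunit protein that also serves as a laminin receptor, took 1.37% and 0.941%, with a CPM of 726 and 595 (ratio 0.820, interval 0.751 to 0.895). These 4 genes were lower within the group in LSEC-like cells although the group as a whole was higher there. In cholangiocyte-like cells their log2 ratios within the group lay between -0.09 and 0.20.

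At the high end of LSEC-like cells stood the paralog Rps27l, a known p53 target that encodes a close relative of Rps27. It had 55 UMIs (CPM 54.7) in Control and 351 UMIs (CPM 125) in PCB126, a ratio of 2.29 (interval 1.72 to 3.09). Its ratio was 0.970 (interval 0.844 to 1.11) in cholangiocyte-like cells and 0.986 (0.752 to 1.29) in the vascular-weighted class. Rpl10, an X-linked protein that joins the large subunit late in its assembly, had a CPM of 288 in Control and 555 in PCB126 LSEC-like cells, a ratio of 1.93 (interval 1.70 to 2.19). Its ratio lay between 1.03 and 1.26 in the other 5 classes. Rpl36al, a paralog of Rpl36a, had 70.6 and 124, a ratio of 1.75 (interval 1.35 to 2.29). Thinned to 1000 UMIs per cell, the log2 ratio of Rpl36al within the group dropped from 0.55 to 0.10, and with clusters for the gate it was 0.22.

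The other paralogs were rare. Rpl22l1, a paralog of Rpl22, had a CPM of 161 in Control and 155 in PCB126 LSEC-like cells, and 479 and 399 in cholangiocyte-like cells. Rpl7l1 stood at 33.8 and 43.8 in LSEC-like cells. Rps27rt, an intronless gene close in sequence to Rps27, had 33.8 and 54.5 there, and reads of these 2 genes may be split by the counting. Rpl3l, known as the muscle form of Rpl3, was found in myeloid cells: 181 UMIs in the 413 monocyte-like and 78 UMIs in the 764 neutrophil-like cells of Control, and 6 UMIs in the 99 neutrophil-like cells of PCB126. Its CPM was 54.4, 24.7 and 14.1 in those groups. It had 0 UMIs in LSEC-like, cholangiocyte-like, vascular-weighted, B-like and dendritic-like cells of both libraries. In Control LSEC-like cells, 0 of 1005663 UMIs allows up to 3 UMIs, and the neutrophil-like level lies above it. Rpl39l had 12 UMIs in all, 7 in Control and 5 in PCB126, and Rpl10l had 0 in every barcode. Rps19bp1 had a CPM of 51.2 and 39.9 in cholangiocyte-like cells and under 100 UMIs in the other 5 classes.

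The make-up of the ribosomal protein transcripts also differed between classes, and members were counted where both libraries passed the fold in the same direction. Other members changed direction between libraries: Rpsa, in cholangiocyte-like over LSEC-like cells, stood at log2 -0.38 in Control and 0.27 in PCB126. Compared with LSEC-like cells, and as a share of the group, 10 of 81 members were at least 1.5-fold higher and 24 at least 1.5-fold lower in neutrophil-like cells in both libraries. Of all 3309 genes, each as a share of all UMIs, 19.6% were higher and 47.4% lower by the same fold. On that scale 2 of the 81 members were higher and 58 lower. The counts within the group are on another scale and cannot be set against that background. Rps9, of the small subunit, was the extreme, with 7.42% of member UMIs in Control neutrophil-like cells against 1.81% in LSEC-like cells. In PCB126 the values were 7.81% and 1.40%. It took 1.63% and 1.78% in cholangiocyte-like cells, so the high value was that of the neutrophil-like class among these 3. Rps27a, which is made as a fusion with ubiquitin, took 3.95% against 1.19% in Control and 4.46% against 1.43% in PCB126. Rpl37, Rps27 and Rpl41 were also higher in neutrophil-like cells in both libraries.

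Lower in neutrophil-like cells was Rpl3, close to the peptidyl transferase centre, with 0.188% of member UMIs against 0.905% in LSEC-like cells in Control, and 0.204% against 0.759% in PCB126. Rpl36a took 0.254% against 1.07% in Control and 0.159% against 0.812% in PCB126. Rpl12, at the base of the stalk, took 0.204% against 0.761% and 0.272% against 0.818%. Rps20 and Rpl4 were also lower, at log2 -1.40 each in Control and -1.95 and -1.31 in PCB126. The neutrophil-like CPM of the median member was lower as well, with a log2 difference to LSEC-like cells of -1.05 in Control and -1.32 in PCB126, yet Rps9 had a CPM of 2347 against 959 in Control.

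**Figure D5:**
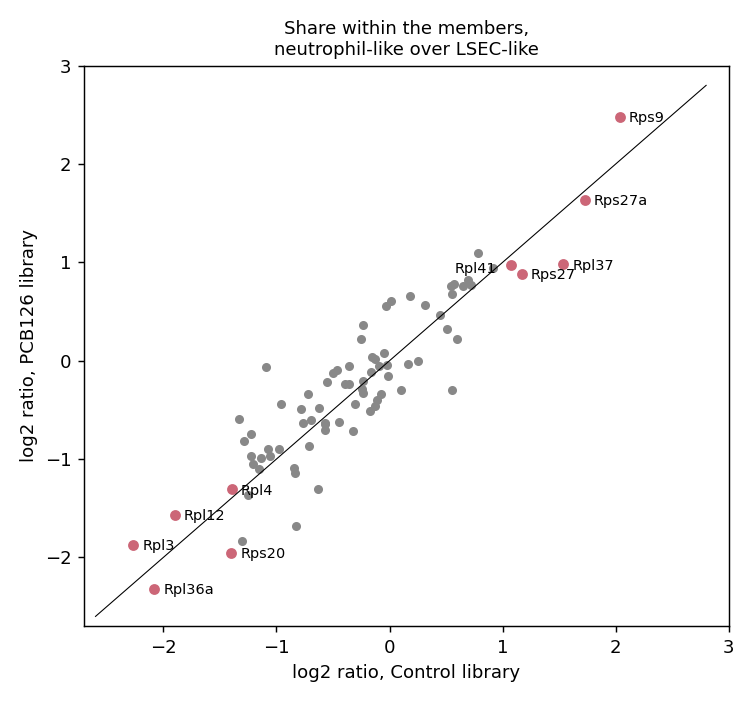
log2 ratio of each member's share of the group, neutrophil-like over LSEC-like cells, in the Control library (x axis) and the PCB126 library (y axis), for 81 members; the line marks equal values. Red points name the 5 highest and the 5 lowest in Control, with Rps9 at 2.04 and 2.48 and Rpl3 at -2.27 and -1.87.

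Within the group, cholangiocyte-like cells were closer than neutrophil-like cells to LSEC-like cells. In both libraries 6 of 80 members were at least 1.5-fold higher within the group, namely Rpl10, Rps18, Rpl10a, Rpl18, Rpl15 and Rpl32, and 1 was lower, Rps6, the target of the S6 kinases. As shares of all UMIs, 55 of the 80 members were higher and 0 lower, beside 34.7% and 21.2% of all genes. Rps18 took 1.94% of member UMIs against 0.952% in Control and 2.02% against 0.928% in PCB126. Rps6 took 0.627% against 1.77% and 0.766% against 1.48%. B-like cells had 7 higher and 5 lower members within the group, and dendritic-like cells 6 and 5. By share of all UMIs, all 79 members were higher in B-like cells and all 80 in dendritic-like cells. The background was 14.7% and 24.3% higher, and 47.2% and 45.1% lower. As a share of the group, Rps18, Rpl10a, Rpl18 and Rpl32 were higher, and Rps6 lower, in cholangiocyte-like, B-like and dendritic-like cells alike. All were compared with the same LSEC-like values. The vascular-weighted class differed from LSEC-like cells within the group in 1 of 80 members, the lower Rpl27. It took 0.213% against 0.354% in Control and 0.222% against 0.354% in PCB126. By share of all UMIs, 61 of the 80 were higher and 0 lower, beside 11.5% and 6.81% of all genes. The endothelial classes thus differed in their summed share (5.31% and 11.1% in Control) and, within the group, in few members.

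Genes that act beside the ribosomal proteins were described in the same way. Of 22 other translation genes whose transcripts carry the oligopyrimidine tract, all 22 passed in LSEC-like cells, with 4 called higher (background 12.5%), 4 lower (background 6.49%) and a median log2 ratio of 0.01. This median lay below that of the members (0.29). Their summed share was 1.07% in Control and 1.24% in PCB126, a ratio of 1.16, beside 1.19 for the members. Most of the gain in this sum came from 1 abundant gene. Of the 22 genes, 12 lay above 0 and 10 below, so the summed ratio does not describe a rise shared by the list. Fau, which encodes a small-subunit protein, had a CPM of 757 in Control and 1114 in PCB126. Rack1, a scaffold on the small subunit, had 537 and 516. The elongation factor gene Eef1a1 had 2608 and 2616. Vim (378 and 173) and Pabpc1 (440 and 240) were the lowest, encoding an intermediate filament and the poly(A)-binding protein.

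Of 41 ribosome assembly genes, 16 passed in LSEC-like cells, with 5 called higher and 0 lower (background 12.5% and 6.49%) and a median of 0.43. Nolc1, a nucleolar chaperone, was the highest, with a CPM of 15.9 in Control and 44.2 in PCB126. Mitochondrial ribosomal proteins, which serve the separate ribosome of that organelle, had 31 of 78 genes passing, with 14 higher, 1 lower and a median of 0.42. The background was again 12.5% and 6.49%, as for every list in this class. None of these lists was compared with other genes at equal transcript length. The 24 initiation factors had 0 higher, 2 lower and a median of 0.09. The 9 p53 and ribosomal stress genes that passed had a median of -0.02, with 4 above 0 and 5 below. Among them 2 were called higher: Cdkn1a, the p21 inhibitor of the cell cycle (CPM 36.8 and 123, ratio 3.34, interval 2.38 to 4.82), and Bax, which promotes apoptosis (32.8 and 71.6). Mdm4, which restrains p53, was lower, at 124 and 79.4. Of the genes for growth signalling to the ribosome, 11 of 20 passed, with 1 higher and a median of 0.23. Eif4ebp1, an mTOR-controlled repressor of translation, was the highest of them, at 25.9 and 46.6. In cholangiocyte-like cells, none of 59 mitochondrial ribosomal proteins, 21 tract genes or 24 initiation factors was called in either direction. The background there was low, at 4.65% higher and 3.44% lower. Of 24 ribosome assembly genes 3 were called higher and 0 lower, and of 14 endoplasmic reticulum translocation genes 0 higher and 2 lower.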

How the data were processed

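Single-cell 3′ libraries of 2 livers were analysed from the deposited matrices of raw UMI counts. The deposited gene and barcode lists hold other content, namely identifiers. The submitters' processing notes list Seurat 4.0.1 beside Cell Ranger 6.1.1, whereas Cell Ranger 6.0.0 stands in the file headers. How reads shared with pseudogenes were counted, and on which genome build and annotation, was not given in the sources used here. GENCODE M21 holds 291 Rpl or Rps pseudogenes named with -ps, against 11 such symbols in the files. All 86 members matched GENCODE M21, which gave transcript lengths.

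Cells had at least 500 UMIs, 250 genes and at most 20% mitochondrial UMIs, and 28 Control and 11 PCB126 barcodes with the highest Scrublet scores were left out. A class needed at least 3 detected markers and a next-best class at no more than 0.67 of its marker fraction. LSEC-like cells needed 2 times as many LSEC as vascular marker UMIs, and 29 Control and 41 PCB126 cells in between were left out of both. This scoring was chosen after seeing the data. Leiden clusters (scanpy 1.11.5, resolution 1) served as an alternative.

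UMIs were summed per library and class. Shares carry Clopper-Pearson 95% intervals and ratios exact conditional binomial intervals. They cover counting error only. With 1 library per group no test was made and no p-value is given. log2 ratios add 0.5 UMI to each sum. Named members were those with the most UMIs, the 3 highest and 3 lowest ratios of group share per class among members with at least 200 UMIs, the paralogs, the stalk genes, Rpsa and Rps19bp1; others named were chosen after their values were seen. A few genes are not reported here by name. The ratio computation was tested on simulated data. The members, lists and comparisons were chosen with earlier results of these data known.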

Additional observations from a re-analysis of the deposited data

Results flagged for a closer look

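The summed member share had a ratio of 1.19 (PCB126 over Control) in LSEC-like cells and 0.888 in cholangiocyte-like cells, opposite directions under the same exposure. The difference between the classes was not tested, since each class has 1 library per group.

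Members or their -ps relatives were also found in barcodes and symbols outside the cells and members compared above, at higher levels in PCB126. Members took 1.10% of UMIs in the 6252 Control barcodes under 250 genes and 2.21% in the 1460 PCB126 barcodes. In barcodes left out only for over 20% mitochondrial UMIs, they took 4.60% in 412 Control barcodes and 6.09% in 1698 PCB126 barcodes. The 11 symbols with -ps had UMIs equal to 0.0793% of the member UMIs in Control cells and 0.0963% in PCB126 cells.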

How the results depend on the processing

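With 1 library per group the ratios have no replicate check, and depth limits the paralogs, the B-like class and the PCB126 neutrophil-like class most. No paired analysis was possible because each group has 1 library. The LSEC-like summed ratio (1.19) stayed above 1 and the cholangiocyte-like ratio (0.888) below 1 under every alternative run. The neutrophil-like (0.980) and vascular-weighted (0.989) ratios lay on both sides of 1. The causes of these shifts were not tested. The bins and shared clusters, each weighed equally, were added after seeing the data. Median-of-ratios scaling moved all neutrophil-like genes by 0.10 on the log2 scale.

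For LSEC-like, cholangiocyte-like, neutrophil-like and vascular-weighted cells in that order, the ratios were 1.10, 0.900, 1.02 and 1.18 with clusters for the gate, 1.15, 0.839, 0.921 and 1.03 with TMM scaling, and 1.15, 0.836, 0.913 and 1.03 with median-of-ratios scaling. They were 1.14, 0.896, 1.02 and 1.03 without mitochondrial and rRNA-related genes, 1.16, 0.959, 1.02 and 0.977 after thinning to 1000 UMIs, and 1.32, 0.924, 1.07 and 1.05 over mitochondrial-share bins. The mean over cells gave 1.17, 0.952 and 1.01 in the first 3, and the median over cells 0.948, 1.04 and 0.972 in the last 3. A cap of 10% mitochondrial UMIs gave 1.22 in LSEC-like, 1.02 in neutrophil-like and 1.05 in vascular-weighted cells, and a cap of 50% gave 1.10 in LSEC-like and 0.879 in cholangiocyte-like cells. A stricter gate gave 1.28, 0.906 and, in the vascular-weighted class, 0.999. Depth bins gave 0.869, 0.956 and 0.974 in the last 3 classes. Shared clusters gave 1.41 in LSEC-like, 0.921 in neutrophil-like and 1.03 in vascular-weighted cells, and marker-ratio bins gave 1.22 in LSEC-like cells.

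The 13 LSEC-like members past the fold became 2 with clusters, 8 with a cap of 10%, 5 with a cap of 50%, 8 with either scaling, 7 without mitochondrial and rRNA-related genes and 22 with the stricter gate. A lower fold threshold gave 39 LSEC-like, 29 neutrophil-like and 21 vascular-weighted members, and a fold of 2 gave 1, 2, 1 and 0 in the order above. Of the alternatives for single member shares, 123 kept their value within counting error, 21 moved and none changed sign. Without mitochondrial and rRNA-related genes, the median of the tract genes became -0.06 in LSEC-like, 0.01 in neutrophil-like and 0.04 in vascular-weighted cells, and with at least 20 UMIs that of mitochondrial ribosomal proteins became 0.02 in the vascular-weighted class.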

Other observations

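Ribosomal protein transcripts stood in a similar balance between subunits in all classes. The ratio of large-subunit to small-subunit UMIs lay between 0.949 (Control neutrophil-like) and 1.24 (PCB126 cholangiocyte-like) among the 6 classes compared. It was 1.08 in Control and 1.12 in PCB126 LSEC-like cells, 1.23 and 1.24 in cholangiocyte-like cells, and 0.949 and 0.971 in neutrophil-like cells. Neutrophil-like cells were the ones of these with more small-subunit than large-subunit UMIs in both libraries.

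Member UMIs were spread over many genes. The 28 most abundant members held 50% of the member UMIs over all cells, and the 6 most abundant (among them Rps29, Rps24, Rps27, Rps9 and Rpl23) held 14.2%. Cells with no class had 17.5% in Control and 18.6% in PCB126. The 4 progenitor-like cells of Control had 30.1%, close to the B-like value in the same library.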
